A study of Homo sapiens with 16 samples.

Results

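Glycolysis splits glucose into pyruvate and yields ATP and NADH on the way, and lactate dehydrogenase turns pyruvate into lactate so that NADH is reoxidised. In the upper steps hexokinase and phosphofructokinase spend ATP and aldolase cleaves the sugar, and the lower steps from glyceraldehyde-3-phosphate dehydrogenase to pyruvate kinase recover the ATP. Fast-growing cultured lines such as 293T keep the mRNAs of the lower steps among their most abundant transcripts, which is why GAPDH serves so often as a reference in RT-PCR, the RT-PCR of the present study included. The mRNAs described here were those of 10 glycolytic enzymes, namely HK1, HK2, PFKP, ALDOA, GAPDH, PGK1, PGAM1, ENO1, PKM and LDHA. They were taken by gene name from the 58884 genes of the RNA-seq table, all 10 were found, and all 10 were among the 16300 genes that passed the filter on low values.

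The 6 RNA-seq libraries came from wild-type 293T cells, a human embryonic kidney line, 72 h after transfection with siRNA. Of these, 2 had received scramble siRNA (replicates 1 and 2), 2 SETD2 siRNA (replicates 2 and 3) and 2 hnRNP L siRNA (replicates 1 and 2). SETD2 is a histone methyltransferase that travels with elongating RNA polymerase II, and hnRNP L is an RNA-binding protein that regulates splicing. The study's reporting summary describes the replicates of its high-throughput experiments as biologically independent. The p-values measure the spread between these samples, pooled over the groups and drawn for each gene towards that of genes of similar level. Levels are TPM (RNA-seq abundance scaled to a fixed total per library), which are corrected for transcript length and can be set side by side between genes.

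The siRNAs reduced their targets: SETD2 stood at 13.38 and 11.7 TPM after scramble siRNA and at 4.24 and 4.91 TPM after SETD2 siRNA, and HNRNPL at 341.04 and 457.16 TPM after scramble siRNA and at 25.04 and 28.81 TPM after hnRNP L siRNA. All 8 of 8 markers listed for 293T cells had a mean of at least 1 TPM, with a summed level of 1040 to 1660 TPM, against 0 of the 9 reported markers of other cell types, with a summed level of 0.49 to 1.14 TPM. Scramble siRNA replicate 1 stood apart from the rest. Its 37 mitochondrially encoded genes took 17.5% of all TPM, against 7.86% in scramble siRNA replicate 2, 6.73% and 6.7% after SETD2 siRNA and 10.9% and 8.8% after hnRNP L siRNA. Because TPM add up to a fixed total, the values of GAPDH and PGAM1 and the counts of members are given below also without this library or without the mitochondrially encoded genes.

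The members spanned almost 2 orders of magnitude, and the lower steps were far more abundant than the entry of glucose into the pathway. GAPDH (ENSG00000111640, hg38 chr12:6534512-6538374, plus strand) was the most abundant member in every library and ranked 55 among all genes by mean TPM. Its level was 2352.43 and 3004.39 TPM after scramble siRNA, 3038.74 and 2909.08 TPM after SETD2 siRNA, and 3572.5 and 3692.3 TPM after hnRNP L siRNA. Both hnRNP L siRNA libraries lay above the other 4 libraries.

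ENO1, the enolase that makes phosphoenolpyruvate (chr1:8861000-8879190, minus strand), stood at 1760.4 and 2278.07 TPM after scramble siRNA, 2141.14 and 2059.79 TPM after SETD2 siRNA, and 2081.21 and 2327.16 TPM after hnRNP L siRNA. LDHA, the lactate dehydrogenase subunit that favours lactate formation (chr11:18394560-18408425, plus strand), stood at 1728.31 and 1929.88, 1988.48 and 1926.68, and 1966.55 and 2404.14 TPM in the same order. ENO1 lay above LDHA in every library except hnRNP L siRNA replicate 2, so their order was not the same in all libraries. ALDOA, the aldolase that cleaves fructose 1,6-bisphosphate into triose phosphates (chr16:30064164-30070457, plus strand), had 1390.79 and 1853.83 TPM after scramble siRNA, 1930.65 and 1835.34 TPM after SETD2 siRNA, and 1604.99 and 1895.49 TPM after hnRNP L siRNA. PKM, pyruvate kinase (chr15:72199029-72231819, minus strand), had 1228.64 and 1519.1, 1529.5 and 1475.79, and 1354.85 and 1567.89 TPM in that order. Within every library LDHA lay above ALDOA and ALDOA above PKM, although neighbours from ENO1 to PKM overlapped in range over the libraries. For ALDOA and PKM the 3 groups overlapped as well. The gene-level table cannot tell the PKM1 and PKM2 splice forms of PKM apart.

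PGK1, the X-linked phosphoglycerate kinase (chrX:77910739-78129295, plus strand), stood at 517.2 and 619.41 TPM after scramble siRNA, 660.59 and 600.37 TPM after SETD2 siRNA, and 594.34 and 688.19 TPM after hnRNP L siRNA. PGAM1, phosphoglycerate mutase (chr10:97426191-97433444, plus strand), had 268.72 and 326.45, 350.44 and 353.11, and 353.23 and 367.23 TPM in the same order, with no overlap between any 2 of the 3 groups. From PKM down to HK2 no range of a member overlapped that of the next.

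The enzymes that commit glucose to the pathway were the lowest of the members, 1 to 2 orders of magnitude below the 5 most abundant ones and closer to PGK1 and PGAM1. HK1, the hexokinase found in most tissues (chr10:69269984-69401884, plus strand), stood at 74.09 and 79.61 TPM after scramble siRNA, 76.62 and 85.36 TPM after SETD2 siRNA, and 72.76 and 87.52 TPM after hnRNP L siRNA. HK2, the inducible hexokinase (chr2:74834127-74893359, plus strand), had 34.52 and 33.75, 33.4 and 38.25, and 34.13 and 45.55 TPM. For both hexokinases the 3 groups overlapped. PFKP, the platelet-type phosphofructokinase (chr10:3066333-3137718, plus strand), had 51.27 and 54.23 TPM after scramble siRNA, 57.43 and 57.49 TPM after SETD2 siRNA, and 49.97 and 46.97 TPM after hnRNP L siRNA. PFKP was the only member whose hnRNP L siRNA libraries lay below all 4 other libraries, while its SETD2 siRNA libraries lay above them. It is only part of the phosphofructokinase step, since PFKL and PFKM had means of 51.2 and 51.8 TPM beside its 52.9 TPM. PFKL stood at 44.94 and 50.14 TPM after scramble siRNA and 43.57 and 51.67 TPM after hnRNP L siRNA. For PFKM the values were 45.25 and 48.02 TPM and 49.33 and 57.02 TPM.

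**Figure D1:**
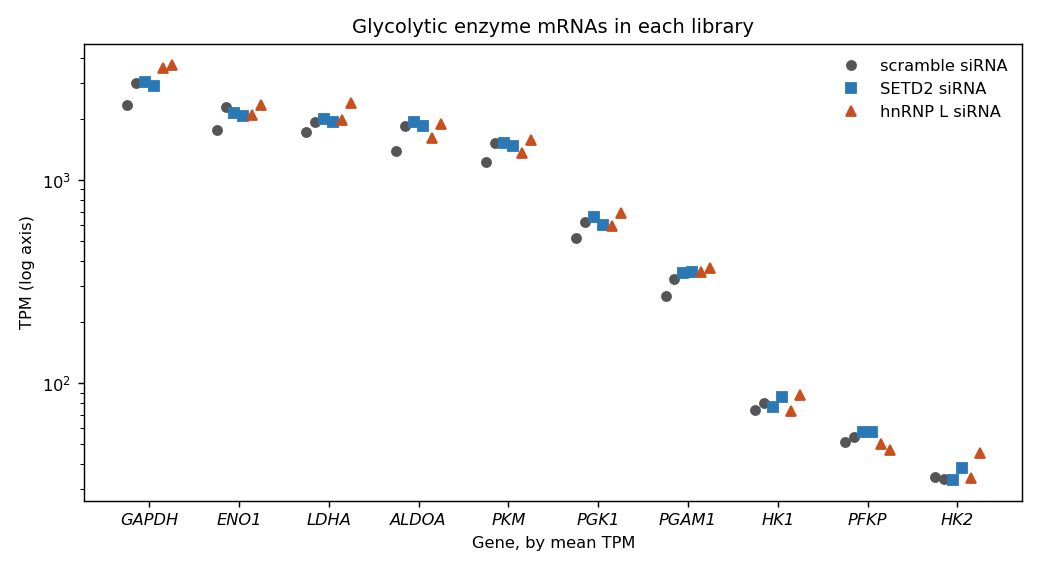
TPM of the 10 members in each of the 6 libraries, on a log axis, with the genes in order of their mean. Circles are scramble siRNA, squares SETD2 siRNA and triangles hnRNP L siRNA. GAPDH was highest in every library, and its triangles (3572.5 and 3692.3 TPM) lay above its other points.

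In 7 of 10 members the lowest of the 6 values was that of scramble siRNA replicate 1, the library with the high mitochondrial share. The 10 members together came to 9406.37 TPM in that library, to 11698.7 TPM in scramble siRNA replicate 2, to 11807 and 11341.3 TPM after SETD2 siRNA, and to 11684.5 and 13122.4 TPM after hnRNP L siRNA. This was 0.941% to 1.31% of all transcripts. The part of the mitochondrial share in the low level of the members was not tested, but with the mitochondrially encoded genes left out of the total GAPDH stood at 2852.1 and 3260.7 TPM after scramble siRNA, 3258.1 and 3118 TPM after SETD2 siRNA, and 4007.9 and 4048.7 TPM after hnRNP L siRNA, so that the hnRNP L siRNA libraries were the highest on this scale too.

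Whether depletion of either protein changed the pathway was tested with limma on log2(TPM + 0.5), and a gene was called where its Benjamini-Hochberg adjusted p was under 0.05 with more than a 1.5-fold change. None of the 10 members was called in any of the 3 comparisons, and at an unadjusted p under 0.05 there were 0 members for SETD2 siRNA against scramble siRNA, 2 for hnRNP L siRNA against scramble siRNA and 1 for hnRNP L siRNA against SETD2 siRNA. Over all 16300 tested genes, the percentage called was 0.104 after SETD2 siRNA, 6.76 after hnRNP L siRNA and 6.84 between the siRNAs. The percentage at an unadjusted p under 0.05 was 13.1, 28.4 and 28.5. At the same cut-offs the study's own edgeR analysis of protein-coding and lncRNA genes reported more changed genes after SETD2 siRNA than were called here. With 2 libraries a group, the smallest two-sided p of an exact permutation test is 0.333.

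After SETD2 siRNA all 10 members had a positive log2 fold change, from 0.07 to 0.25, with a median of 0.13 beside 0.01 over all tested genes. The adjusted p-values ran from 0.39 to 0.876. Without scramble siRNA replicate 1 the count of positive members was 7, and without the mitochondrially encoded genes it was also 7. PGAM1 had a log2 fold change of 0.25 (SE 0.11, adjusted p = 0.39), which was 0.11 without scramble siRNA replicate 1, and PFKP of 0.12 (SE 0.10, adjusted p = 0.611), and these 2 members had both SETD2 siRNA libraries above both scramble siRNA libraries, which held for 22.9% of all tested genes. GAPDH had a log2 fold change of 0.16 (SE 0.14, adjusted p = 0.646), which was -0.02 without scramble siRNA replicate 1.

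After hnRNP L siRNA GAPDH had the highest log2 fold change of the members, 0.45 (SE 0.14), a 1.37-fold higher level, with an unadjusted p of 0.0106 in limma and an adjusted p of 0.0718. It did not pass the threshold, and its adjusted p ran from 0.0202 to 0.31 over the alternatives. The adjusted p was 0.0411 with median-ratio scaling between libraries, 0.0202 without the mitochondrially encoded genes, 0.0425 with protein-coding and lncRNA genes only and 0.0498 after quantile normalization, each with a fold change under 1.5. It was 0.271 with no filter, 0.17 with only these groups in the fit, 0.107 without the variance trend, and 0.308 and 0.31 without hnRNP L siRNA replicate 1 or 2. Without scramble siRNA replicate 1 the log2 fold change was 0.27 (adjusted p = 0.098), and without scramble siRNA replicate 2 it was 0.63 (adjusted p = 0.0205), a call.

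PGAM1 was next, with a log2 fold change of 0.28 (SE 0.11, adjusted p = 0.144). It was 0.14 (adjusted p = 0.3) without scramble siRNA replicate 1, 0.42 (adjusted p = 0.0378) without scramble siRNA replicate 2 and 0.38 (adjusted p = 0.0456) with median-ratio scaling. LDHA followed with 0.25 (SE 0.13, adjusted p = 0.244), HK2 with 0.21 (SE 0.14, adjusted p = 0.387) and PGK1 with 0.18 (SE 0.13, adjusted p = 0.403), which was 0.05 without scramble siRNA replicate 1. ENO1, ALDOA, PKM and HK1 had log2 fold changes between 0.05 and 0.14, each smaller than its SE, and PFKP had -0.12 (SE 0.10, adjusted p = 0.444). The median of the 10 members was 0.16, beside -0.08 over all tested genes. GAPDH, PGAM1 and LDHA had both hnRNP L siRNA libraries above both scramble siRNA libraries, as did 18.8% of all tested genes, and PFKP had them below, as did 37.8%. Among the 228 nuclear-encoded genes with a mean of at least 500 TPM, GAPDH included, 99.1% had a lower log2 fold change than GAPDH. The share was 97.7% of 1280 genes at a mean of at least 100 TPM and 98.4% of 124 genes at 1000 TPM.

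The 2 depletions were also compared directly, in the fit over all 6 libraries. GAPDH was 0.29 higher on the log2 scale after hnRNP L siRNA than after SETD2 siRNA (SE 0.14, adjusted p = 0.214), and the adjusted p was 0.0392 without the mitochondrially encoded genes, 0.0392 with only these 2 groups in the fit, and 0.0372 and 0.0371 with scramble siRNA replicate 1 or 2 left out of the fit. It was 0.495 with no filter, 0.412 and 0.561 without SETD2 siRNA replicate 2 or 3, and 0.501 and 0.518 without hnRNP L siRNA replicate 1 or 2. PFKP was lower by 0.24 (log2 fold change -0.24, SE 0.10, unadjusted p = 0.0317 and adjusted p = 0.133 in limma). PGAM1 differed by 0.03 (SE 0.11, adjusted p = 0.872). GAPDH and PGAM1 had both hnRNP L siRNA libraries above both SETD2 siRNA libraries, as did 18.6% of all tested genes, and PFKP had them below, as did 41.2%. The median over the 10 members was 0.03, beside -0.10 over all tested genes.

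**Figure D2:**
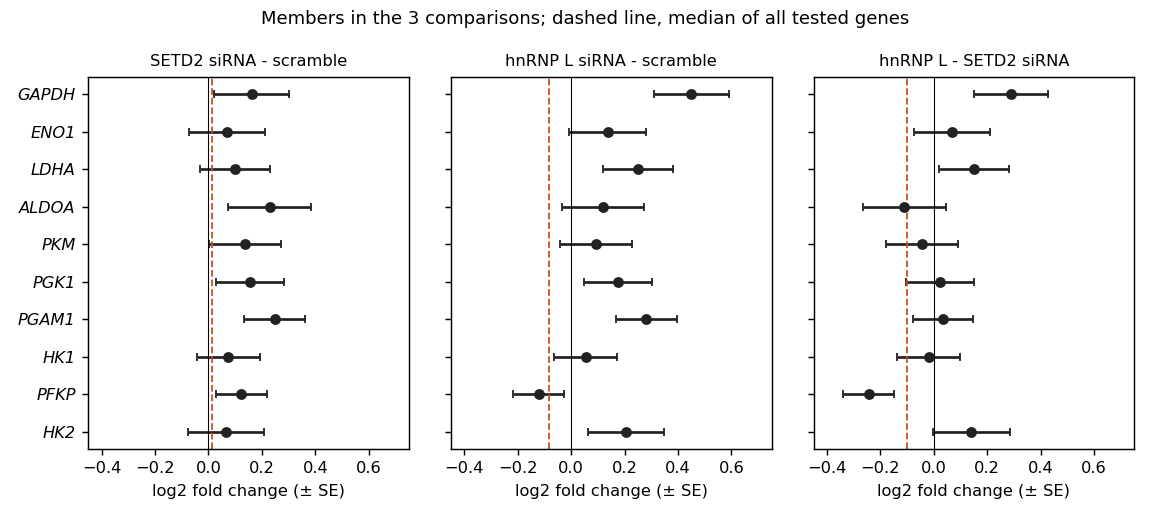
Log2 fold change of each member in the 3 comparisons, with bars for the standard error from limma (2 libraries in each group) and a dashed line at the median of all 16300 tested genes. GAPDH stood highest after hnRNP L siRNA (0.45), and PFKP was the only member below 0 there (-0.12).

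GAPDH was then compared with the other 9 members within each library, a measure that no scaling between libraries can move. The log2 level of GAPDH minus the mean log2 level of the other 9 members was 2.71 and 2.85 after scramble siRNA, 2.84 and 2.78 after SETD2 siRNA, and 3.17 and 3.03 after hnRNP L siRNA. The hnRNP L siRNA libraries were again the highest, with a mean of 3.10 ± 0.10 (SD, n = 2) against 2.78 ± 0.10 for scramble siRNA and 2.81 ± 0.04 for SETD2 siRNA. GAPDH thus stood 0.32 higher relative to the other 9 members after hnRNP L siRNA than after scramble siRNA, or 1.25-fold, and 0.03 higher after SETD2 siRNA. No p is given for this score, since its members were chosen as a list. The difference of 0.32 ranged from 0.24 to 0.39 when each library was left out in turn, and was 0.27 with the median of the other members, 0.29 with their summed TPM and 0.27 with the 6 other members above 100 TPM in every library.

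The shift was spread over most of the other 9 members, which leave out the glycolytic enzymes GPI and TPI1. GPI had a log2 fold change of 0.47 after hnRNP L siRNA, close to the 0.45 of GAPDH, so GAPDH did not rise relative to it. TPI1 stood at 993.33 and 1274.22 TPM after scramble siRNA, 1184.08 and 1172.53 TPM after SETD2 siRNA, and 1412.49 and 1361.19 TPM after hnRNP L siRNA. The ratio of GAPDH to the other enzyme was higher in both hnRNP L siRNA libraries than in both scramble siRNA libraries for 7 of 9 members, the exceptions being HK2 and LDHA. Against PFKP the log2 ratio was 5.51 and 5.78 after scramble siRNA and 6.15 and 6.28 after hnRNP L siRNA, the widest shift of the 9 (0.57). Against PGAM1 it was 3.13 and 3.20 after scramble siRNA and 3.34 and 3.33 after hnRNP L siRNA, the narrowest (0.17). Of all other tested genes, 82.3% had such a higher ratio of GAPDH, so the members did not stand out from other genes in this count. Against the SETD2 siRNA libraries the count was 8 of 9, beside 73.7% of all tested genes. GAPDH made up 25%, 25.7%, 25.7% and 25.7% of the members' summed TPM in the scramble and SETD2 siRNA libraries and 30.6% and 28.1% in the hnRNP L siRNA libraries.

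**Figure D3:**
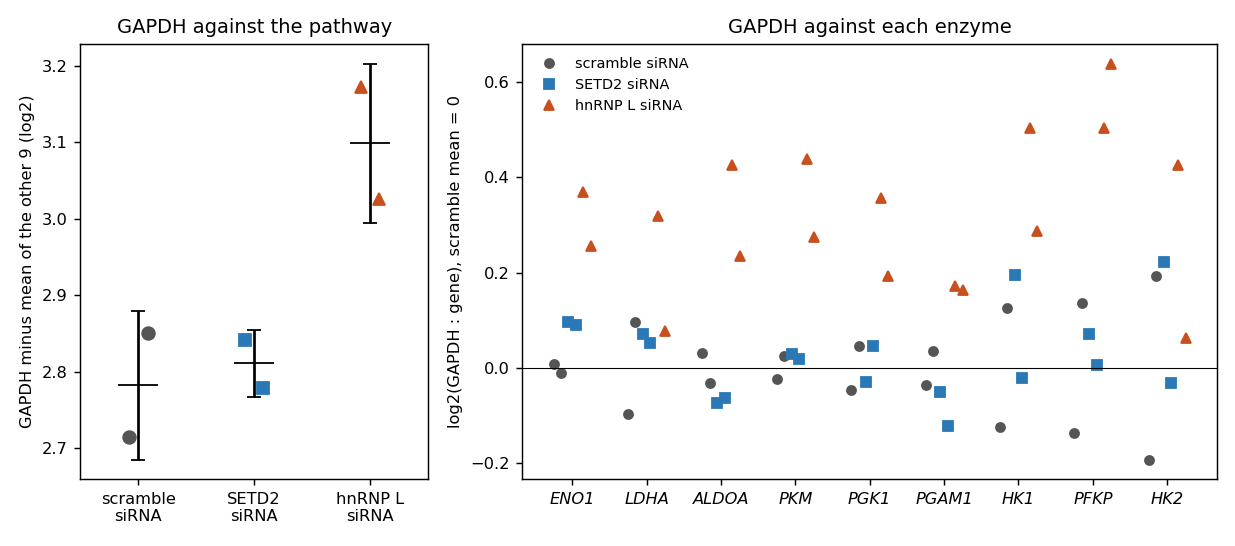
Left, log2 level of GAPDH minus the mean of the other 9 members in each library, with the mean and SD of 2 libraries. Right, log2 ratio of GAPDH to each enzyme, set to 0 at the scramble siRNA mean. The triangles (hnRNP L siRNA) lay above the circles (scramble siRNA) for 7 of 9 enzymes.

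The locus itself holds an overlapping gene that moved further than GAPDH. AC006064.4 (ENSG00000269968, chr12:6537794-6538370) is a long non-coding RNA annotated on the opposite strand, and all of its 577 bases lie within GAPDH. It was singled out after its values were seen. Its level was 34.04 and 24.19 TPM after scramble siRNA, 26.01 and 23.29 TPM after SETD2 siRNA, and 54.04 and 51.86 TPM after hnRNP L siRNA. The hnRNP L siRNA libraries were the highest, with a log2 fold change of 0.87 against scramble siRNA (SE 0.15, adjusted p = 0.0122 in limma) and of 1.09 against SETD2 siRNA (SE 0.15, adjusted p = 0.00607). Without hnRNP L siRNA replicate 1 or 2 the adjusted p against scramble siRNA was 0.113 or 0.0798, at log2 fold changes of 0.84 and 0.90. Against SETD2 siRNA it was 0.0651 and 0.0789 without SETD2 siRNA replicate 2 or 3, and 0.0719 and 0.0562 without hnRNP L siRNA replicate 1 or 2. With no filter the adjusted p of AC006064.4 was 0.0879 and 0.0673 in these comparisons, and scaled to GAPDH its log2 fold change against scramble siRNA was 0.43 (adjusted p = 0.151). Its mean level was 1.15% of that of GAPDH. Whether the counting used strand is not given in the sources used here, so it is not known whether reads of the antisense RNA and of GAPDH were kept apart. The other tested genes overlapping a member, AC093512.2 at ALDOA, ATP7A at PGK1 and ENO1-AS1 at ENO1, had mean levels of 0.426%, 0.493% and 0.0334% of that member.

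**Figure D4:**
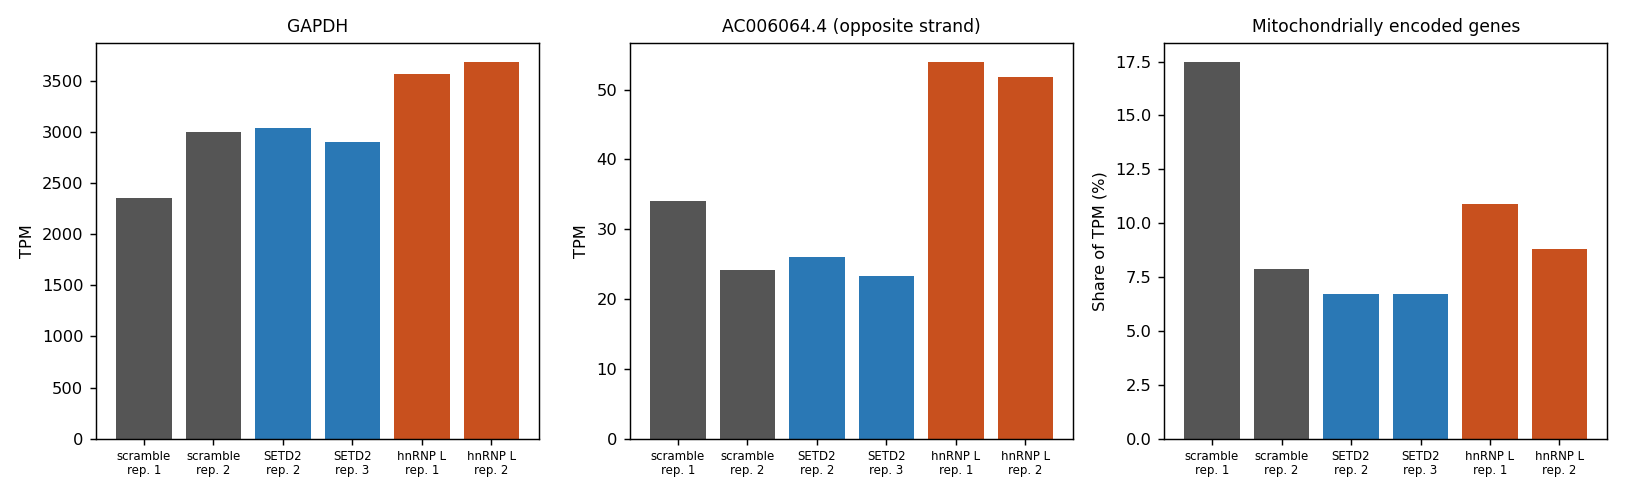
TPM of GAPDH, TPM of the opposite-strand gene AC006064.4 and the share of TPM from the 37 mitochondrially encoded genes in each library. Scramble siRNA replicate 1 had the highest mitochondrial share (17.5%) and the lowest GAPDH level (2352.43 TPM), and both hnRNP L siRNA libraries had the highest levels of GAPDH and AC006064.4.

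Abundant glycolytic mRNAs have left many processed pseudogenes, whose sequence is close enough for reads to be divided between copy and parent. The table holds 62 pseudogenes named after GAPDH, of which 36 were at 0 in every library and 5 were tested, and 6 named after LDHA, of which 5 were tested. The GAPDH pseudogenes summed to 18.2 to 29.8 TPM, at most 0.826% of GAPDH, and the LDHA pseudogenes to 12 to 18.6 TPM, at most 0.782% of LDHA. The most abundant was GAPDHP1 (chrX:39787132-39788136, minus strand), at 11.44 and 15.79 TPM after scramble siRNA, 16.92 and 14.7 TPM after SETD2 siRNA, and 16.37 and 19.59 TPM after hnRNP L siRNA. Aligned to the canonical GAPDH mRNA of 1285 bases (GENCODE v44), GAPDHP1 matched at 967 of 1005 bases (96.2%) with a longest identical run of 93 bases. GAPDHP65 (chrX:46439709-46440714, minus strand) matched at 94.8% and LDHAP4 (chr9:14921337-14922334, minus strand) matched LDHA at 95.8%. The stretches of 60 coding bases with the most mismatches are shown for both parents, with differing bases in capitals. A read of 75 bases across such a stretch differs between copy and parent, whereas one within the identical run of 93 bases can come from either gene. Bases are counted from the start codon, 864 to 923 for GAPDH and 251 to 310 for LDHA.
GAPDH: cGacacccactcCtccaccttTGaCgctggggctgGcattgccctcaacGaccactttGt
GAPDHP1: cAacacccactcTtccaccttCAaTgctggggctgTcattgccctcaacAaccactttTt
LDHA: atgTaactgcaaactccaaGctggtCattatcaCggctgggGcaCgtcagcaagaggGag
LDHAP4: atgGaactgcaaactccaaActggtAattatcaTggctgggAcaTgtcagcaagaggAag
The GAPDH stretch holds 8 differing bases and the LDHA stretch 7. Of all 75-base windows of the GAPDH mRNA, 2.1% also occur unchanged in GAPDHP1, and of those of LDHA 2.9% occur in LDHAP4. The part of shared reads in the values of GAPDH and LDHA was not tested.

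Several glycolytic genes carry the core of the hypoxia response element, ACGTG, which the hypoxia-inducible factor binds, and the E-box CACGTG, which contains it and is bound by MYC and the carbohydrate-responsive factors MLXIP and MLXIPL. RefSeq promoter windows (GRCh38.p14) were read for all 10 members, and for 6 of them a window began at the canonical start site. Within the 250 bases before that start, ACGTG on either strand occurred in HK2, ALDOA, PGK1 and LDHA, 4 of 6, against 18.5% of the 35116 windows. CACGTG occurred in LDHA only, 1 of 6, against 6.3%. The 35116 windows include alternative starts, whereas those of the members were kept only at the canonical start, so the sets are unlike. The members' windows were GC-rich, from 68.4% to 76.8% against a median of 58% over all windows. The windows of LDHA and PGK1, which hold the motif more than once, are shown beside that of ENO1, which does not hold it, with motif letters in capitals and the bases read 5' to 3' on the strand of the gene.
LDHA: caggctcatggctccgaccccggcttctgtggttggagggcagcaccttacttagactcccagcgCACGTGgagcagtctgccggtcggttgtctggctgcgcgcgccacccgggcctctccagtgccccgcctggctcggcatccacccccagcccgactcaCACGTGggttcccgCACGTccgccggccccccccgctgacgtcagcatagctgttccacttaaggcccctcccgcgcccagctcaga
PGK1: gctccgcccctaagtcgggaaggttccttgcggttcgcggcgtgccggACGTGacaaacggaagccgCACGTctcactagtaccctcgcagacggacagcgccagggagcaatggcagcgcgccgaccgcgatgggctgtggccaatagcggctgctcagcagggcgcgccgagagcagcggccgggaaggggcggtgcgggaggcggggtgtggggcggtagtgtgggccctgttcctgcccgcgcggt
ENO1: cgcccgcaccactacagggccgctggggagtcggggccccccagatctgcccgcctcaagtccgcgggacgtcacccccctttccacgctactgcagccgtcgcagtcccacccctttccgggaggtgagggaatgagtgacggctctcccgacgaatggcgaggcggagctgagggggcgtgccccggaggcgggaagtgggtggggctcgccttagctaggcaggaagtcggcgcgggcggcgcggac
These lie at chr11:18394313-18394562 (plus strand), chrX:78103998-78104247 (plus strand) and chr1:8878687-8878936 (minus strand). A match is a description of letters, not of a bound site. After hnRNP L siRNA the members with the motif had log2 fold changes of 0.25 for LDHA, 0.21 for HK2, 0.18 for PGK1 and 0.12 for ALDOA, and those without it had 0.14 for ENO1 and 0.09 for PKM, of which none passed the test. The members with no window at the canonical start are outside this comparison. Of these, GAPDH (0.45) and PGAM1 (0.28) had higher values than all of the above, and HK1 (0.05) and PFKP (-0.12) lower ones. For GAPDH the RefSeq window lay 747 bases from the canonical start and is not shown.

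Beyond the members, the rest of glucose metabolism was followed with lists of isozymes, transporters, flux regulators, gluconeogenic and pentose phosphate genes, and with regulators and targets of the hypoxia and carbohydrate responses. After SETD2 siRNA no gene of these lists was called, beside 0.104% of all tested genes. After hnRNP L siRNA, 0 of 11 tested other glycolytic isozymes were called higher and 1 lower, beside 6.76% of all tested genes called in either direction. It was ENO3, the muscle enolase, at 7.09 and 8.87 TPM after scramble siRNA, 5.89 and 6.21 TPM after SETD2 siRNA, and 2.97 and 3.24 TPM after hnRNP L siRNA (log2 fold change -1.23, SE 0.15, adjusted p = 0.00327). GPI, glucose-6-phosphate isomerase, passed the adjusted p but not the fold change, with 148.14 and 188.26 TPM after scramble siRNA, 169.2 and 167.39 TPM after SETD2 siRNA, and 226.79 and 236.78 TPM after hnRNP L siRNA (log2 fold change 0.47, SE 0.12, adjusted p = 0.042). An adjusted p under 0.05 alone was reached by 11.2% of all tested genes in this comparison and by 10.8% between the siRNAs. ENO2, the neuronal enolase, had a log2 fold change of 0.45 against scramble siRNA (adjusted p = 0.06) and 0.53 against SETD2 siRNA (adjusted p = 0.0377). The median over the list was 0.12.

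Among 10 tested genes of glucose and lactate transport 1 was called after hnRNP L siRNA, beside 6.76% of all tested genes called in either direction. It was SLC2A6, a facilitative hexose transporter, which fell from 4.94 and 4.83 TPM to 3.03 and 2.69 TPM (log2 fold change -0.68, SE 0.14, adjusted p = 0.0224). SLC16A1, the lactate transporter MCT1, passed the adjusted p but not the fold change, at 192.08 and 164.19 TPM after scramble siRNA and 126.89 and 137.08 TPM after hnRNP L siRNA (log2 fold change -0.43, SE 0.11, adjusted p = 0.0438). The list had a median of -0.42, lower than the -0.08 of all tested genes. SLC2A1, the basal glucose transporter GLUT1, was at 44.34 and 45.13 TPM after scramble siRNA, 45.67 and 37.88 TPM after SETD2 siRNA, and 31.28 and 35.6 TPM after hnRNP L siRNA.

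In the control of glycolytic flux, 0 of 15 tested genes were called after hnRNP L siRNA against scramble siRNA, beside 6.76% of all tested genes. PDK1, the kinase that inhibits pyruvate dehydrogenase, stood at 22.57 and 22.7 TPM after scramble siRNA, 20.66 and 18.3 TPM after SETD2 siRNA, and 29.33 and 38.2 TPM after hnRNP L siRNA. Its log2 fold change was 0.55 against scramble siRNA (SE 0.14, adjusted p = 0.0372, fold change under 1.5) and 0.77 against SETD2 siRNA (adjusted p = 0.0134), the latter a call. In gluconeogenesis 1 of 4 tested genes was called after hnRNP L siRNA against scramble siRNA, beside the same 6.76%. PCK1, cytosolic phosphoenolpyruvate carboxykinase, rose from 0.8 and 0.96 TPM to 2.55 and 3.24 TPM (log2 fold change 1.29, SE 0.20, adjusted p = 0.00722), a level near the filter.

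The pentose phosphate pathway, which branches off glucose 6-phosphate to make NADPH and ribose, held 2 called genes of 9 after hnRNP L siRNA, both lower, beside 6.76% of all tested genes called in either direction. PGLS, 6-phosphogluconolactonase, which the table lists under the name AC010618.1, stood at 47.86 and 64.13 TPM after scramble siRNA, 67.26 and 63.39 TPM after SETD2 siRNA, and 30.9 and 29.4 TPM after hnRNP L siRNA (log2 fold change -0.87, SE 0.14, adjusted p = 0.00898). RPE, ribulose-phosphate epimerase, stood at 38.16 and 41.59, 42.39 and 48.17, and 25.01 and 27.37 TPM (log2 fold change -0.60, SE 0.11, adjusted p = 0.0142). RPIA, the ribose-phosphate isomerase that acts beside RPE, was at 30.76 and 30.33, 34.89 and 36.96, and 25.06 and 24.7 TPM, and differed at an adjusted p of 0.0146 only between the siRNAs (log2 fold change -0.52). The median over the 9 genes was -0.12.

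Among 13 tested regulators of the hypoxia and carbohydrate responses 1 was called higher and 2 lower after hnRNP L siRNA, beside the same 6.76% of all tested genes. At an adjusted p under 0.05 alone in limma, 2 were higher and 2 lower, beside 11.2% of all tested genes. No list was tested as a whole. MLXIP, the glucose-sensing factor MondoA, was higher by 0.70 (SE 0.15, adjusted p = 0.0225), its relative MLXIPL had a log2 fold change of -0.68 (SE 0.14, adjusted p = 0.0227) and ARNT2, a partner of hypoxia-inducible factors, of -0.94 (SE 0.17, adjusted p = 0.0123). MYC was not called. It stood at 193.38 and 210.13 TPM after scramble siRNA and at 274.12 and 263.27 TPM after hnRNP L siRNA. Of 13 tested other hypoxia targets 1 was called after hnRNP L siRNA, beside 6.76% of all tested genes. It was ANKRD37, at 7.29 and 6.47 TPM after scramble siRNA and 11.85 and 15.74 TPM after hnRNP L siRNA (log2 fold change 0.94, SE 0.16, adjusted p = 0.0111). DDIT4, an inhibitor of mTORC1 signalling, had 0.55 (SE 0.11, adjusted p = 0.0207) and a fold change under 1.5. The median of these targets was -0.09, near that of all tested genes.

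In all, 16 of the genes that the naming rule took from the lists, the marker lists included, passed an adjusted p of 0.05 after hnRNP L siRNA. Most of these calls were lost when an hnRNP L siRNA library was left out. All 16 kept their direction when any library was left out. The number that kept an adjusted p under 0.05 was 4 without scramble siRNA replicate 1, 9 without scramble siRNA replicate 2, 10 without either SETD2 siRNA library, 5 without hnRNP L siRNA replicate 1 and 2 without hnRNP L siRNA replicate 2. For the 16 that passed between the siRNAs, the numbers were 13 without either scramble siRNA library, 0 and 2 without SETD2 siRNA replicates 2 and 3, and 1 and 2 without hnRNP L siRNA replicates 1 and 2.

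Since GAPDH is a usual denominator, other genes were expressed per GAPDH to see what that choice would do to them. The 16 common reference genes had a median level of 101% of scramble siRNA after hnRNP L siRNA by TPM, and of 73.9% when divided by GAPDH. All 16 of 16 were lower per GAPDH, from 52.4% for TFRC, the transferrin receptor, to 83.5% for TUBB, a tubulin. ACTB, beta-actin, stood at 107% by TPM and 78.7% per GAPDH. After SETD2 siRNA the median was 110% by TPM and 98.7% per GAPDH, with 10 of 16 genes lower per GAPDH. TFRC was the only reference gene past an adjusted p of 0.05 after hnRNP L siRNA, beside 11.2% of all tested genes. It stood at 45.57 and 37.24 TPM after scramble siRNA, 45.68 and 47.25 TPM after SETD2 siRNA, and 29.62 and 30.89 TPM after hnRNP L siRNA (log2 fold change -0.44, SE 0.12, adjusted p = 0.0459).

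**Figure D5:**
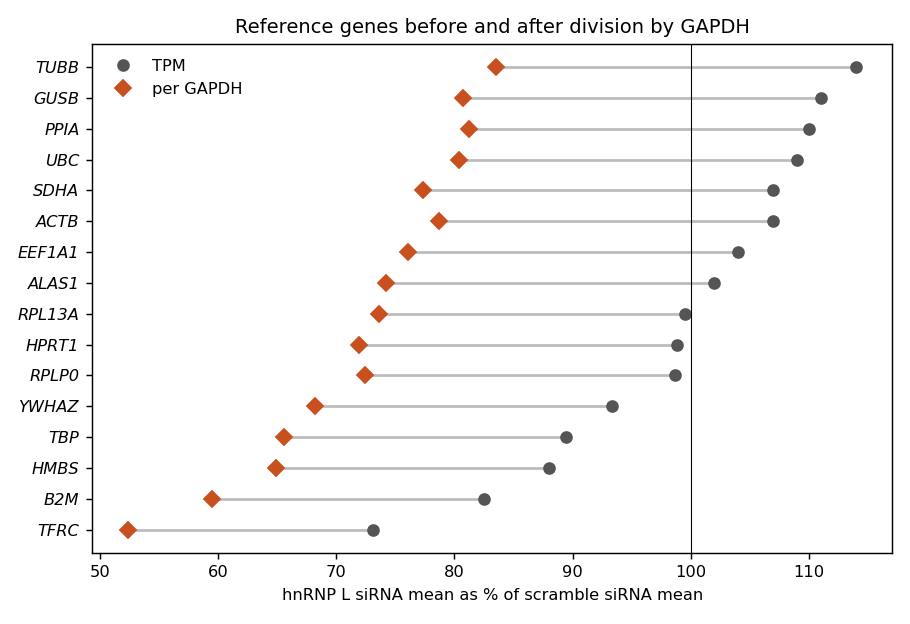
Mean level of 16 common reference genes after hnRNP L siRNA as a percentage of the scramble siRNA mean (2 libraries each), by TPM (circles) and per GAPDH (diamonds). All 16 diamonds lay below 100%, from 52.4% to 83.5%.

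Division by GAPDH lowers all genes of a comparison by about the same factor, the siRNA targets included. HNRNPL was left at 6.75% of scramble siRNA by TPM and 4.98% per GAPDH after its own siRNA, and SETD2 at 36.5% and 32.2% after its own siRNA. SETD2 after hnRNP L siRNA stood at 83.9% by TPM and 60.5% per GAPDH, and HNRNPL after SETD2 siRNA at 101% and 91.5%. With every gene divided by GAPDH, 5596 of 16368 tested genes (34.2%) were called lower after hnRNP L siRNA and 109 higher, at a median log2 fold change of -0.49. After SETD2 siRNA the same scaling gave 4 higher and 7 lower at a median of -0.13.

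The genes whose level over the 6 libraries was most like that of GAPDH were looked for among 2591 other genes with a mean of at least 50 TPM, by Pearson's r of log2(TPM + 0.5). They were PMF1 (r = 0.998), RPS2P5 (0.993), HDDC3 (0.993), PSMF1 (0.991) and FABP5 (0.99). PMF1, a kinetochore protein, stood at 91.57 and 112.19 TPM after scramble siRNA, 110.65 and 108.72 TPM after SETD2 siRNA, and 127.48 and 129.4 TPM after hnRNP L siRNA. Among the members r with GAPDH was 0.874 for PGAM1, 0.839 for LDHA, 0.792 for ENO1, 0.77 for PGK1, 0.606 for PKM, 0.559 for ALDOA and 0.32 for HK1, and it was -0.43 for PFKP. These values describe 6 libraries that share the siRNA groups and, through scramble siRNA replicate 1, the mitochondrial share, and they carry no test.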

How the data were processed

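The 6 RNA-seq libraries of siRNA-treated 293T cells (72 h) were grouped by the sample labels, 2 for each siRNA. The ChIP samples were not analysed here. The authors produced the deposited gene-level TPM with STAR 2.6.1c (hg38, Ensembl release 96 gene models) and RSEM 1.3.0. Each library was prepared after ribodepletion and polyA enrichment. TPM keep no read counts, so the depth behind each value is unknown and no counting interval is given.

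Tests and fold changes used log2(TPM + 0.5), a scale on which changes of low genes come out too small. The 16300 genes whose mean TPM reached 0.5 were tested with limma 3.58.1 (R 4.3.3), with a variance trend, 1 mean per siRNA over all 6 libraries and Benjamini-Hochberg adjustment over all tested genes. The fit was tested on simulated data. Members and lists were chosen with earlier results of these data known, and so were the alternatives. 1 gene of the cell type markers is not reported here. All 137 other listed genes were matched by symbol or Ensembl ID. Named are all members and, in each list, every gene called in any comparison (adjusted p under 0.05, more than 1.5-fold). Where a list held fewer than 3 of these, up to the 3 genes with the largest change at an adjusted p under 0.05 were added, and genes outside this rule are named for their level or position. Coordinates, overlaps and transcripts came from GENCODE v44 (hg38), promoters from RefSeq (GRCh38.p14). Alignments were made with Biopython 1.88. No sample numbers pair the groups: scramble and hnRNP L siRNA share the numbers 1 and 2, but no label ties them to a common culture or day.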

Additional observations from a re-analysis of the deposited data

Results flagged for a closer look

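Differences between the effects of the 2 depletions were looked at again where the direct contrast of hnRNP L siRNA with SETD2 siRNA passed the test, or where every library of one depletion lay above and every library of the other below the scramble siRNA libraries. Both criteria were applied to the members and to the genes that the naming rule took from the lists, not to the rest of the lists, where HIF1A, LDHC, MAX and GUSB also meet the second. Among the members only PFKP met one, the second. The share of all tested genes that meet the second criterion was not counted, so PFKP is not set apart by it. The difference for PFKP was -0.24 on the log2 scale, which was not past the threshold in limma (adjusted p = 0.133). RPIA met the second criterion too, and its difference of -0.52 passed the adjusted p (0.0146) but not the fold change of 1.5.

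Of the other genes of the lists, 11 passed the test in the direct contrast, beside 6.84% of all tested genes. The naming rule took genes called in any comparison, this contrast included, so their passing followed from that choice. Lower after hnRNP L siRNA than after SETD2 siRNA were the enolase ENO3 (-0.86), the hexose transporter SLC2A6 (-0.70), the pentose phosphate genes PGLS (-1.10) and RPE (-0.78), the factor ARNT2 (-0.76) and the reference gene TFRC (-0.61). Higher were PDK1 (0.77), PCK1 (1.10), MLXIP (0.64), ANKRD37 (0.80) and the neurofilament gene NEFM (0.85). NEFM and NEFL, listed as 293T markers, were at 437.3 and 454.39 TPM and at 109.22 and 129.77 TPM after hnRNP L siRNA, against 201.58 and 183.74 TPM and 64.61 and 70.07 TPM after scramble siRNA. Their part in the results on the members was not tested.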

How the results depend on the processing

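No member was called in any comparison under the alternatives, except GAPDH after hnRNP L siRNA without scramble siRNA replicate 2 (0 to 1 members called when each library was left out). With a library left out its group holds 1 sample, which is assumed to vary like the others. The log2 fold change of GAPDH against scramble siRNA passed an adjusted p of 0.05 with median-ratio scaling (0.545), TPM without mitochondrially encoded genes (0.402), quantile normalization (0.337) and a test of protein-coding and lncRNA genes alone (0.45), and was 0.274 to 0.626 with each library left out. Against SETD2 siRNA it passed without mitochondrially encoded genes (0.338, also without scramble siRNA replicate 1) and with only these groups in the fit (0.289), and was 0.257 to 0.32 with each library left out. Except without scramble siRNA replicate 2, these settings moved the adjusted p past 0.05 at a fold change under 1.5, so they made no call, and the cause was not tested. After SETD2 siRNA GAPDH was -0.015 to 0.338 with each library left out, and -0.033 without scramble siRNA replicate 1 on TPM without mitochondrially encoded genes, an alternative chosen after seeing the data.

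Small changes of other members after hnRNP L siRNA turned sign. With each library left out the range was -0.077 to 0.187 for HK1, 0 to 0.411 for HK2, -0.088 to 0.327 for ALDOA, -0.05 to 0.322 for ENO1 and -0.06 to 0.246 for PKM. Quantile normalization gave -0.019 for ENO1 and -0.016 for PKM, and the alternative without scramble siRNA replicate 1 and mitochondrially encoded genes gave -0.057 for ALDOA, -0.018 for ENO1 and -0.028 for PKM. Scaling to GAPDH, which subtracts its own change by construction, gave -0.392 for HK1, -0.239 for HK2, -0.331 for ALDOA, -0.274 for PGK1, -0.168 for PGAM1, -0.314 for ENO1, -0.357 for PKM and -0.198 for LDHA. It gave -0.254 for PGAM1 against SETD2 siRNA and -0.037 for PFKP after SETD2 siRNA.

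The other genes of glucose metabolism called after hnRNP L siRNA were 5, and 1 with no filter, 21 with scaling to GAPDH and 1 to 5 with each library left out. Of all genes 1102 were called, with no filter 235, with scaling to GAPDH 5705, and with each library left out 172 to 821. With no fold-change cut-off 1826 were called, and above a fold change of 2, 291. Of all genes called after SETD2 siRNA (17), the count was 1 with no filter and 60 with protein-coding and lncRNA genes only. With the replicate number as a block, GAPDH after hnRNP L siRNA kept 0.45 (adjusted p = 0.223) and 715 genes were called. Deviations of scramble siRNA replicate 1 and hnRNP L siRNA replicate 1 from their group means correlated at r = -0.126 over the 16300 tested genes. With 2 libraries in each group, replicate 2 gives the same r. The crossed pairing, chosen after seeing the data, called 1406 genes and 0 members. SETD2 siRNA shares only the number 2 with the other groups, so no paired analysis of it was possible.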
